A study of Bos taurus with 11 samples.

Results

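*miR-424*, *miR-503*, *miR-450a*, *miR-450b* and *miR-542* are miRNAs whose genes lie side by side on the bovine X chromosome. Their mature forms were followed in mammary biopsies of lactating Holstein and Montbéliarde cows. The members were chosen by name, and 7 of the 796 miRNAs of the deposited count table carried a listed name. They were bta-miR-424-5p, bta-miR-424-3p, bta-miR-503-5p, bta-miR-450a, bta-miR-450b, bta-miR-542-5p and bta-miR-3601, named without the species prefix in what follows. The last pair had the same count in each library and was treated as 1 miRNA, which left 6 distinct members.

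Small RNA was sequenced from 5 Holstein and 6 Montbéliarde cows, with 1 library per cow. According to the study's methods, the cows of both breeds were in mid-lactation, received the same diet and were biopsied in the udder, and another Holstein cow was left out because of mastitis. The labels give breed and tissue but no age. The reads counted on miRNAs ranged from 7431936 to 16808976 per Holstein library and from 6087865 to 11395785 per Montbéliarde library. According to the study, a smaller part of the raw reads remained after cleaning in Montbéliarde on average, with more adaptor and too short reads. The effect of this difference was not tested. All Holstein libraries carry lower tag numbers (CNLX1 to CNLX9) than the Montbéliarde libraries (CNLX13 to CNLX23), so that any effect of the order of these tags and breed cannot be told apart.

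The mature miRNA guides a silencing complex to mRNAs, and its seed, a short stretch near the 5′ end, largely sets which mRNAs are bound. *miR-424-5p* and *miR-503-5p* share most of their seed with *miR-15* and *miR-16* and repress regulators of the cell cycle such as *CDC25A*. In the mouse mammary gland the *miR-424* and *miR-503* unit is known as a target of TGF-beta signalling with a part in involution, the regression of the gland after weaning. The 5p and 3p forms of a miRNA come from the opposite arms of 1 hairpin, and usually the more abundant form is the one kept in the silencing complex.

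In the RefSeq annotation of the ARS-UCD2.0 assembly, the 7 genes of the cluster follow each other without any other annotated gene between them. They lie between *HPRT1* and *PLAC1* in the order *MIR450B*, *MIR450A-1*, *MIR450A-2*, *MIR542*, *MIR503* and *MIR424*, and the annotated *MIR3601* lies inside *MIR542*. No coordinates are given, because the authors counted reads on an earlier assembly. *miR-450a* has 2 genes in this order, and its reads cannot be assigned to either of them.

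The cluster gave few reads in the lactating gland. Scaled to a library total of 1000000 counted reads (RPM), its distinct members together amounted to between 61.6 and 101 RPM in the Holstein libraries, against 49.3 to 110 RPM in the Montbéliarde libraries, and the breeds overlapped. *miR-450b* alone held between 49.5 and 64.7% of these reads. It was the most abundant member in each library and ranked 147 among the 754 miRNAs with a count, by mean share of reads. *miR-450a* ranked 194, *miR-424-5p* 205, *miR-542-5p* 309, *miR-424-3p* 316 and *miR-503-5p* 646. The library totals and ranks include 64 miRNAs that repeat the counts of another miRNA, so that some reads may enter the totals more than once. Levels are given below as normalized read counts, the raw counts divided by the size factor of the library. A mature miRNA is read whole, so that counts were not scaled by length, and differences in adaptor ligation between miRNAs were not tested.

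**Figure D1:**
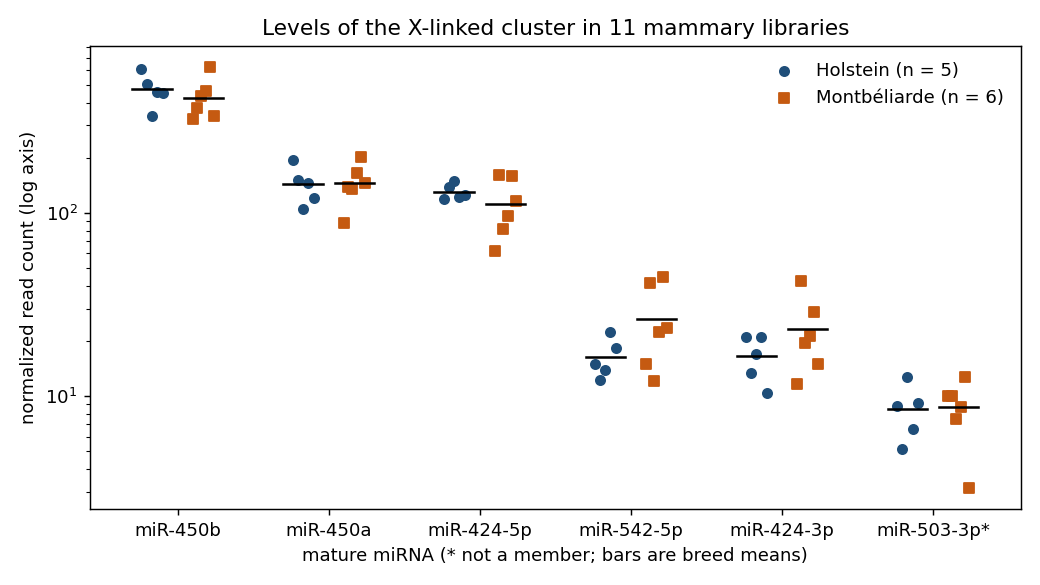
Normalized read count (log axis) of 5 members and of miR-503-3p, which is not a member, in each of 5 Holstein (circles) and 6 Montbéliarde (squares) libraries, with bars for the breed means. The breeds overlap for each miRNA, and miR-450b (means of 472 and 425) stands above the others, whereas miR-542-5p reaches at most 44.8 and miR-424-3p at most 42.5.

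The order of the levels was clear between *miR-450b* and the members after it. Counts of *miR-450b* were between 2.31 and 3.78 times those of *miR-450a* and higher in 11 of 11 libraries. *miR-450a* exceeded *miR-424-5p* in 8 of 11 libraries, with ratios from 0.702 to 1.72, and these neighbours did not differ beyond their spread. *miR-424-5p* exceeded *miR-542-5p* in 11 of 11 libraries, by 3.57 to 11.2 times. *miR-542-5p* and *miR-424-3p* did not differ beyond their spread either, since the first was higher in 6 of 11 libraries.

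*miR-503-5p*, the arm of *miR-503* with the seed shared with *miR-424-5p*, was barely detected. There was 1 count in library CNLX1 and 3 counts in CNLX7, both Holstein, and none in any other library. A floor of 3 counts was chosen here and corresponds to between 0.178 and 0.493 RPM in these libraries. Levels below this floor can go undetected. No test and no fold change were possible at this depth. The other arm, *miR-503-3p*, is not among the listed members and was looked at after its values were seen. It had between 4 and 21 counts in each of the 11 libraries. *miR-503-5p* thus made up 4 of 104 reads of both arms over all libraries, or 3.85% (Wilson 95% confidence interval of 1.51 to 9.47%). In the Montbéliarde libraries it was 0 of 47 reads, which allows a share of up to 6.38% by the limit of 3 counts and 7.56% by the upper Wilson bound. Such intervals and limits cover the counting error only.

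The opposite balance was found for *miR-424*, whose 5p arm prevailed. *miR-424-5p* held 86.1% of the 1687 reads of both arms over all libraries (Wilson 95% confidence interval of 84.4 to 87.7%). The lowest share, 79.0%, was that of Montbéliarde library CNLX15 and the highest, 92.3%, that of Holstein library CNLX9.

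The breeds were compared with edgeR's quasi-likelihood test on the raw counts of the 550 miRNAs with at least 10 counts over the 11 libraries, with Benjamini-Hochberg adjustment over all of them. Of the 6 distinct members, 5 reached this limit, and *miR-503-5p* did not. None of the 5 had an adjusted p of at most 0.05, whereas 2 miRNAs, or 0.364%, passed among all tested. Without adjustment the same limit was met by 0 members and by 78 of all tested miRNAs, or 14.2%. With DESeq2, 0 members passed after adjustment, against 4.24% of the miRNAs that it adjusted, and 0 passed before adjustment, against 85 miRNAs, or 15.5%. For no member did the normalized read counts of the breeds fail to overlap, which occurred in 2% of all tested miRNAs. The members' median log2FC (Montbéliarde over Holstein) was 0.04, with 2 negative and 3 positive values, and that of all tested miRNAs was 0.03. In bulk biopsies a lower share of a cell type and less RNA per cell cannot be told apart.

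**Figure D2:**
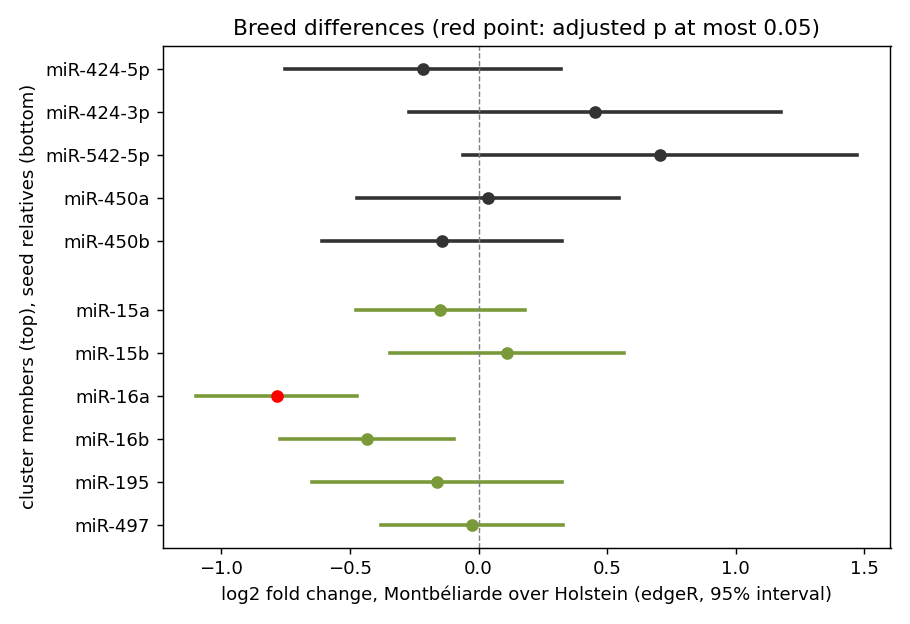
log2FC (Montbéliarde over Holstein, edgeR) with its 95% interval for 5 cluster members (black) and 6 miRNAs of the miR-15 and miR-16 family (green), with a red point where the adjusted p is at most 0.05. The intervals of all 5 members include 0, from -0.21 for miR-424-5p to 0.71 for miR-542-5p, and only miR-16a has a red point.

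*miR-424-5p*, the abundant arm, was at 119, 138, 150, 122 and 125 normalized read counts in Holstein libraries CNLX1 to CNLX9. In Montbéliarde it ranged from 61.7 in CNLX13 to 160 in CNLX15 and CNLX21, with a median of 106. The Holstein libraries thus lay within the range of the Montbéliarde libraries, 4 of which were below and 2 above all Holstein libraries. The means were 131 ± 12.9 (SD, n = 5) and 112 ± 40.8 (SD, n = 6). The log2FC was -0.21 (standard error 0.25, 95% interval -0.75 to 0.32, adjusted p = 0.752 from edgeR). The coefficient of variation between cows was 9.91% in Holstein and 36.4% in Montbéliarde, and counting error alone would give 7.91 and 9.58% at the mean count of each breed. The difference in spread was not tested.

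*miR-424-3p*, the less abundant arm, had normalized read counts of 21.1, 13.3, 16.9, 21.1 and 10.4 in the Holstein libraries. It ranged from 11.7 in CNLX13 to 42.5 in CNLX15 in Montbéliarde, with a median of 20.4. The breeds overlapped, with CNLX15 and CNLX21 (28.7) above all Holstein libraries, CNLX19 (21.3) just above them and CNLX13 near the lowest. The log2FC was 0.45 (standard error 0.34, 95% interval -0.27 to 1.175, adjusted p = 0.551 from edgeR). With 7 to 34 reads per library, counting error alone gives a coefficient of variation of about 21.7%, which was part of the 45.2% seen between all libraries.

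*miR-542-5p* had the largest log2FC of the members. Its normalized read counts were 14.9, 12.3, 13.9, 22.4 and 18.2 in Holstein. In Montbéliarde they were 15.0, 41.2, 12.0, 22.3, 44.8 and 23.5 in libraries CNLX13 to CNLX23. CNLX15 and CNLX21 stood well above the other 9 libraries, and of the other Montbéliarde libraries only CNLX23 was above the highest Holstein library, by about 1 normalized count. The log2FC was 0.71 (standard error 0.36, 95% interval -0.06 to 1.47, adjusted p = 0.366 from edgeR), a rank of 103 by p-value among the 550 miRNAs. *miR-3601* had these same counts, and it is not known which of the 2 annotations the reads come from.

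*miR-450a* and *miR-450b* were close to equal between the breeds. *miR-450a* was at 193, 150, 105, 146 and 120 normalized read counts in the Holstein libraries CNLX1 to CNLX9, with a mean of 143 ± 33.8 (SD, n = 5). In Montbéliarde the lowest value was 88.3 in CNLX13, the median 142 and the highest 202 in CNLX21, with a mean of 146 ± 37.3 (SD, n = 6). The Holstein libraries thus lay inside the Montbéliarde range. *miR-450b* was at 609, 504, 340, 454 and 453 in the Holstein libraries, with a mean of 472 ± 97.5 (SD, n = 5). Its lowest Montbéliarde value was 323 in CNLX13, the median 404 and the highest 625.2 in CNLX21, with a mean of 425 ± 112 (SD, n = 6). The same libraries thus marked the lowest and the highest level of both miRNAs in each breed. The log2FC was 0.04 (standard error 0.24, 95% interval -0.47 to 0.55) for *miR-450a* and -0.14 (standard error 0.22, 95% interval -0.61 to 0.32) for *miR-450b*. Their adjusted p-values from edgeR were 0.970 and 0.811.

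Estimated as 1 value for both breeds, the variation between cows was not unusual for these miRNAs. Such a value does not show differences in spread between the breeds, as for *miR-424-5p* (coefficient of variation of 9.91% in Holstein and 36.4% in Montbéliarde). The biological coefficient of variation estimated by edgeR was 0.279 for *miR-450b*, 0.295 for *miR-450a*, 0.305 for *miR-424-5p*, 0.351 for *miR-424-3p* and 0.383 for *miR-542-5p*. The median of all tested miRNAs was 0.324.

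Members were then set against each other within each library, where the scaling of the library has no effect. The ratio of *miR-424-5p* to *miR-542-5p*, with 0.5 added to each count, was 7.74, 10.8, 10.6, 5.38 and 6.66 in the Holstein libraries. It was 3.95, 3.84, 6.41, 4.23, 3.54 and 4.84 in the Montbéliarde libraries. All Montbéliarde libraries but CNLX17 were below all Holstein libraries, and CNLX17 was above CNLX7. The geometric mean fell from 7.95 in Holstein to 4.38 in Montbéliarde, a difference of -0.86 on the log2 scale (exact permutation test, two-sided, p = 0.00866, 0.0260 after adjustment over 3 ratios). The smallest p-value that this test can give is 0.00433. The adjusted p was above 0.05, at 0.0571, without Holstein library CNLX3, CNLX5 or CNLX9, and the call held without any of the other 8 libraries.

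The balance of the *miR-424* arms differed in the same direction. Counts of *miR-424-5p* were 5.53, 10.0, 8.72, 5.71 and 11.4 times those of *miR-424-3p* in the Holstein libraries. In Montbéliarde the ratio was 5.0, 3.72, 4.04, 4.42, 5.49 and 7.56. CNLX23 was the only Montbéliarde library within the Holstein range, although CNLX21 was just below the lowest Holstein library. The geometric means were 7.93 and 4.90, a difference of -0.70 on the log2 scale (exact permutation test, two-sided, p = 0.0260, adjusted p = 0.0390). This adjustment left out the planned ratio to *miR-503-5p*, and the call may depend on that choice. The call was lost, at adjusted p-values from 0.0595 to 0.0857, without any of CNLX3, CNLX5, CNLX9, CNLX15, CNLX17, CNLX19 and CNLX21. The ratios to *miR-424-3p* and to *miR-542-5p* share *miR-424-5p* as numerator and are not independent of each other.

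**Figure D3:**
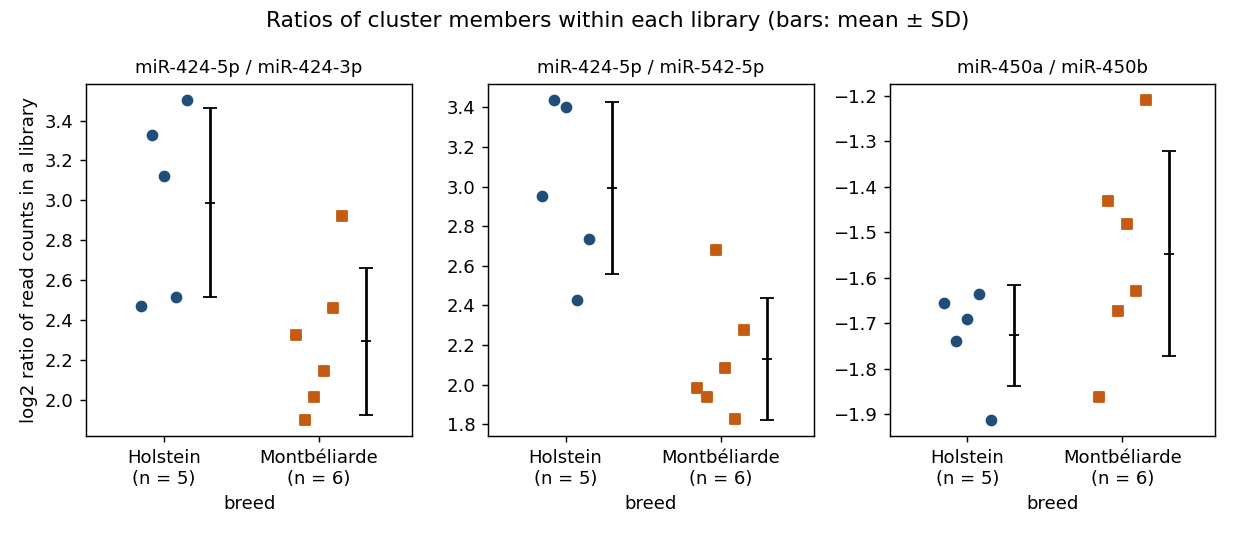
log2 ratio of the read counts of 2 members within each library, for 5 Holstein (circles) and 6 Montbéliarde (squares) libraries, with bars for the mean ± SD of each breed and a separate axis range for each panel. The mean log2 ratio is lower in Montbéliarde for miR-424-5p over miR-424-3p (2.29 against 2.99) and over miR-542-5p (2.13 against 2.99), and the breeds overlap in each panel.

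The ratio of *miR-450a* to *miR-450b* was steadier. Holstein libraries lay between 0.265 and 0.322, Montbéliarde libraries between 0.275 and 0.433, and the difference of 0.18 on the log2 scale did not pass the test (exact permutation test, two-sided, p = 0.121, adjusted p = 0.121). Without CNLX13, the adjusted p was 0.0397. *miR-450a* made up 24.6% of the reads of both miRNAs over all libraries (Wilson 95% confidence interval of 23.6 to 25.6%). Whether reads were shared between the 2 miRNAs in the authors' counting was not tested.

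Markers of other cells also differed between libraries. The summed normalized read counts of 6 epithelial miRNAs (the *miR-200* family with *miR-141* and *miR-429*, and *miR-205*) ran from 367535 to 466746 across the Holstein libraries, against 180093 to 469496 across the Montbéliarde libraries, with medians of 410584 and 258090. All Montbéliarde libraries but CNLX13 were below all Holstein libraries. The epithelial sum was thus lower in the breed in which both *miR-424-5p* ratios were lower. The 6 miRNAs did not all differ in this way. From DESeq2, the log2FC was -0.73 for *miR-141*, -0.61 for *miR-200c* and -0.33 for *miR-429*. It was -0.10 for *miR-200b*, -0.03 for *miR-200a* and 0.38 for *miR-205*. CNLX21 and CNLX15, which had the highest *miR-424-5p*, *miR-424-3p* and *miR-542-5p* of the Montbéliarde libraries, had the lowest epithelial sums. CNLX13, with the lowest *miR-424-5p*, had the highest epithelial sum, and its ratio of *miR-424-5p* to *miR-542-5p* was 3.95. Across the Holstein libraries the sum of 5 stromal miRNAs ran from 1511914 to 2303536. Across the Montbéliarde libraries it ran from 1926891 to 3866930, and it was highest in CNLX15 and then CNLX21. *miR-143* alone came close to this sum, with a Montbéliarde mean of 2757166 beside a Holstein mean of 1838345. The stromal markers did not all differ in 1 direction, but only *miR-145* had a negative log2FC from DESeq2, at -0.27. It was 0.58 for *miR-143*, 0.68 for *miR-199a-3p*, 0.55 for *miR-199a-5p* and 0.86 for *miR-214*. In the same order of breeds, the ranges of 5 leukocyte miRNAs were 18031 to 26952 and 17229 to 39422, and those of 2 endothelial miRNAs 251466 to 330168 and 239684 to 297167. For 3 erythroid miRNAs they were 23603 to 39552 and 23429 to 57421. The sum of *miR-1* and *miR-133a*, the 2 listed muscle miRNAs with counts, ranged from 570 to 1797 and from 468 to 1562, and *miR-206* was not analysed here. Each of these markers had a count in each library and none passed the test between breeds. Their part in the ratios was not tested.

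Members also varied together between cows to different degrees. The levels were compared on the log2(normalized read count + 0.5) scale over the 11 libraries, in 10 pairs of 5 members. Pearson's r was positive in all 10 pairs, with a median of 0.45. Libraries share their scaling factor across members, which is part of each value. Counting error alone gives a coefficient of variation of 4.59% for *miR-450b*, 8.04% for *miR-450a* and 8.70% for *miR-424-5p*. It is larger for *miR-542-5p* (20.7%) and *miR-424-3p* (21.7%), and its effect on r was not tested.

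*miR-450a* and *miR-450b* rose and fell together most closely, a pair singled out after its values were seen. Pearson's r was 0.829 (permutation test with 100000 resamples, p = 0.00174, 0.0174 after adjustment over 10 pairs) and Spearman's rho 0.864 (permutation p = 0.00107, adjusted p = 0.0107). Without CNLX13 and CNLX21, the libraries farthest from the median of *miR-450a*, r was 0.703 (permutation p = 0.0339). With the breed mean subtracted, r was 0.865 (permutation across both breeds together, approximate p = 0.00077). This was the only pair to pass over all 10.

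*miR-424-5p* was less close to the other members. Pearson's r was 0.451 with *miR-424-3p*, 0.487 with *miR-542-5p*, 0.449 with *miR-450a* and 0.334 with *miR-450b*, and Spearman's rho was 0.373, 0.373, 0.218 and 0.309. None passed the permutation test, with p-values adjusted over these 4 relations from 0.222 to 0.319 for r and from 0.476 to 0.522 for rho. Without CNLX13 and CNLX17, the libraries farthest from the median of *miR-424-5p*, r with *miR-450a* was -0.15 and r with *miR-450b* was -0.01. With the breed mean subtracted, r was 0.669 with *miR-424-3p* (adjusted permutation p = 0.0483) and 0.787 with *miR-542-5p* (adjusted permutation p = 0.0177). Within the 6 Montbéliarde libraries alone, r between *miR-424-5p* and *miR-542-5p* was 0.926 (exact permutation test, p = 0.0167, 0.139 after adjustment over 10 pairs). The 5 Holstein libraries were too few for a coefficient, but they did not show this pattern. CNLX5 and CNLX3, with the highest *miR-424-5p* of the Holstein libraries (150 and 138), had low *miR-542-5p* (13.9 and 12.3), and over these libraries r of *miR-424-5p* was negative with each of the other 4 members. The values with the breed mean subtracted thus do not describe both breeds, and the difference between the breeds was not tested.

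**Figure D4:**
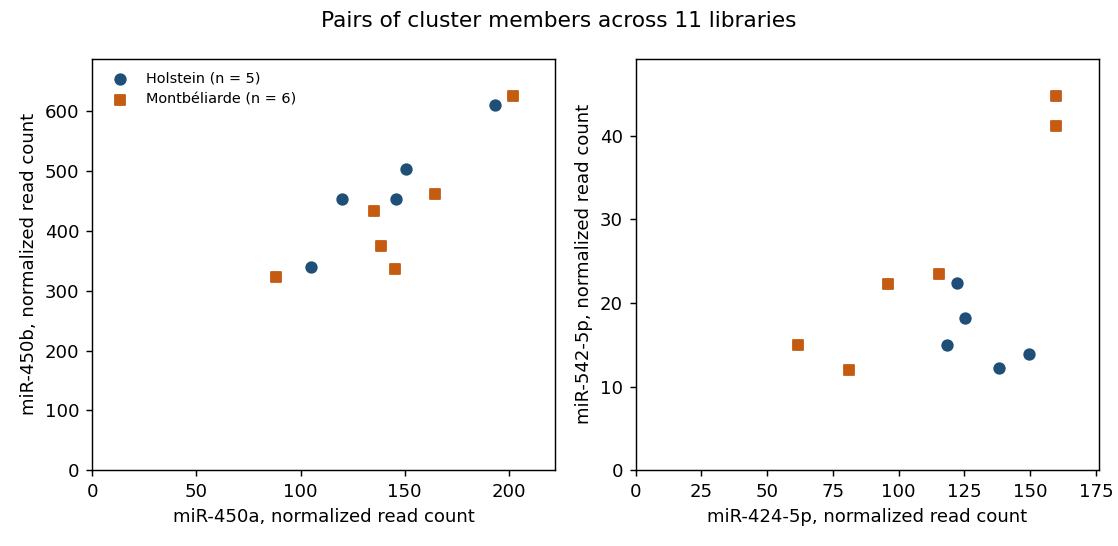
Normalized read counts of miR-450b against miR-450a (left) and of miR-542-5p against miR-424-5p (right) in 5 Holstein (circles) and 6 Montbéliarde (squares) libraries. Both breeds lie along 1 line on the left (Pearson's r = 0.829 on the log2 scale), whereas on the right r is 0.487 over all libraries and 0.926 within Montbéliarde, and the Holstein libraries with the highest miR-424-5p (150 and 138) have low miR-542-5p (13.9 and 12.3).

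Outside the cluster, *miR-145* had the pattern most like that of *miR-424-5p* among the 211 other miRNAs with a mean of at least 100 normalized read counts. *miR-145* is typical of smooth muscle and is also 1 of the 5 stromal markers. The stromal sum did not have this pattern, with a higher median in Montbéliarde (2724091) than in Holstein (1837267), and CNLX17, low in *miR-424-5p*, had the third highest sum (3120255). However, the sum was close to the level of *miR-143* alone, whose Montbéliarde mean was 2757166, beside a Holstein mean of 1838345. *miR-145* thus hardly entered the sum, which cannot show whether stromal miRNAs as a group followed *miR-424-5p*. Between breeds, the other stromal markers had log2FC from 0.55 to 0.86 with DESeq2. The log2FC was -0.27 for *miR-145* and -0.21 for *miR-424-5p*, and none of these miRNAs passed the test. Between *miR-145* and *miR-424-5p*, Pearson's r over the 11 libraries was 0.914, Spearman's rho 0.827, and r was 0.901 with the breed mean subtracted. *miR-145* was lowest in CNLX13, at 1600, the library in which *miR-424-5p* was lowest, with means of 3894 ± 858 (SD, n = 5) for Holstein and 3231 ± 1153 (SD, n = 6) for Montbéliarde. The next most alike were *miR-369-3p*, a miRNA of the imprinted *DLK1* and *DIO3* region (r = 0.856), *miR-301a* (0.780), *let-7i* (0.756) and *miR-3432a* (0.730). These miRNAs were picked for their high r, and the values describe these libraries without a test.

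**Figure D5:**
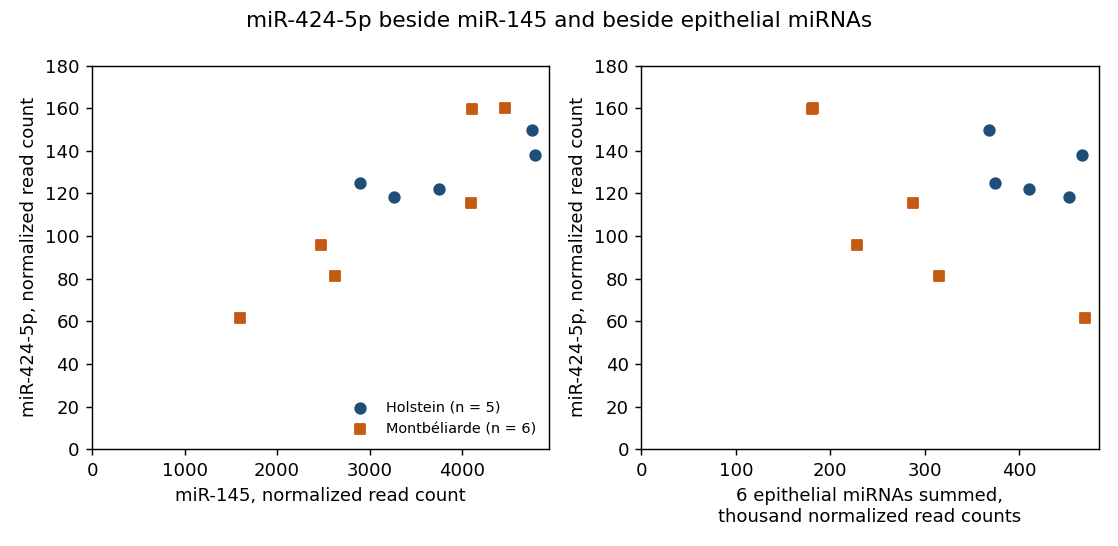
Normalized read count of miR-424-5p in 5 Holstein (circles) and 6 Montbéliarde (squares) libraries against that of miR-145 (left) and against the sum of 6 epithelial miRNAs in units of 1000 (right), where the points of CNLX15 and CNLX21 coincide. miR-424-5p follows miR-145 (Pearson's r = 0.914 on the log2 scale), and at the epithelial sums of the Holstein libraries lie both the 5 Holstein values above 118 and the lowest Montbéliarde value of 61.7.

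The relatives of *miR-424-5p* by seed were far more abundant. The summed normalized read counts of *miR-15a*, *miR-15b*, *miR-16a*, *miR-16b*, *miR-195* and *miR-497* were between 169 and 404 times those of *miR-424-5p* in a library. Of these 6 miRNAs, 1 passed the test, against 2 of all 550 tested (0.364%). It was *miR-16a*, lower in Montbéliarde, with -0.79 on the log2 scale (standard error 0.15, edgeR, adjusted p = 0.0370). This call was lost, with 0 miRNAs past the test, when miRNAs of the same counts were kept once, with the size factors of DESeq2, and without CNLX1, CNLX3, CNLX5, CNLX7, CNLX15, CNLX19 or CNLX21. With the DESeq2 Wald test it held (log2FC -0.78, standard error 0.15, DESeq2, adjusted p = 0.00020). *miR-16b* was at -0.43 (standard error 0.16, edgeR, adjusted p = 0.231), and the other 4 were between -0.16 and 0.11. The median log2FC of the family was -0.16, beside 0.03 for all tested miRNAs. The normalized read counts of the breeds did not overlap for *miR-16a* and *miR-16b*, which occurred in 2% of all tested miRNAs.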

How the data were processed

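Mammary biopsies of 5 Holstein and 6 Montbéliarde cows were analysed, grouped by the breed in the labels. The authors trimmed adaptors, filtered reads by length, annotated and quantified reads with the ncPRO-seq pipeline, aligned them and identified known and predicted miRNAs with miRDeep2, an earlier bovine assembly and miRBase, and deposited raw read counts per mature miRNA. How reads matching several miRNAs were counted is not given in the sources used here. The submitters' notes name bcl2fastq 2.17.1.14 and DESeq2 1.18.1. The other deposited columns, 11 columns of normalized values, their means and the authors' fold changes and p-values, were not used here.

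The test between breeds was edgeR 4.0.16 under R 4.3.3 (TMM, robust glmQLFit, glmQLFTest) on miRNAs with at least 10 counts over all libraries, at an adjusted p of at most 0.05. DESeq2 1.42.0 was an alternative and gave the size factors. Intervals of log2FC used the moderated degrees of freedom. Ratios were compared with exact permutation tests (scipy 1.17.1), adjusted over 3 ratios. The planned ratio to *miR-503-5p* was left out because of its counts of 0. Adjustment over all planned ratios was not run, and the call for the *miR-424* arms may depend on it. The fits were tested on simulated data. P-values set a breed difference or a correlation against the variation between libraries. With 1 library per cow, variation between cows, biopsies and library preparations cannot be told apart.

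The members, gene lists and comparisons were chosen with earlier results of these data known. Named were the members, the 6 seed relatives and the 5 miRNAs with the highest Pearson's r to *miR-424-5p*. Further pairs of members and *miR-503-3p* were added after the values were seen. Alternatives covered the test, normalization, filter, rows with the same counts, library total as covariate, offset and each library left out. No sequences are printed, as they were not analysed here. Plots used matplotlib 3.10.9.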

Additional observations from a re-analysis of the deposited data

How the results depend on the processing

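The number of members past the threshold was 0 under each alternative run. The number of all miRNAs past it was 2, and it was 21 with the DESeq2 Wald test, 0 with the size factors of DESeq2 in edgeR, 0 with miRNAs of the same counts kept once, 1 with library totals in place of TMM and between 0 and 6 with each library left out, never 2. In 82 of 87 alternative fits the log2FC of a member kept its sign, and the lowest adjusted p was 0.205. The sign turned for *miR-424-5p* with the library total as covariate (0.0084). With each library left out, the log2FC of *miR-450a* ranged from -0.055 to 0.22 (below 0 without CNLX5, CNLX9 or CNLX21) and that of *miR-450b* from -0.26 to 0.023 (above 0 without CNLX1). The difference of the *miR-424* arm ratio ranged from -0.83 to -0.57 with adjusted p-values from 0.0238 to 0.0857, that of the ratio to *miR-542-5p* from -1.0 to -0.75 (0.0238 to 0.0571) and that of *miR-450a* to *miR-450b* from 0.11 to 0.24 (0.0397 to 0.267). An offset of 1 count changed no call. The cause of these changes was not tested. With the breed mean subtracted, r of *miR-424-5p* was 0.669 with *miR-424-3p* and 0.787 with *miR-542-5p*. Both were past the threshold by approximate p-values from permutation across both breeds together. Over the Holstein libraries alone, r was negative for both of these pairs. Without the 2 farthest libraries, r of *miR-424-5p* was -0.15 with *miR-450a* and -0.013 with *miR-450b*. No paired analysis was possible because each library came from a different cow, which belonged to only 1 of the breeds. Depth limits *miR-503-5p*, *miR-542-5p* and *miR-424-3p*.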

Other observations

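Among the 211 miRNAs outside the cluster with a mean of at least 100 normalized read counts, *miR-363* had the level most like that of *miR-450a* over the 11 libraries (Pearson's r = 0.623, Spearman's rho = 0.391). In the RefSeq annotation its gene lies on the same chromosome, with 10 genes between *MIR363* and *MIR450B*. The value for *miR-424-5p* with *miR-363* was 0.313. The miRNA most like *miR-450b* was *miR-21-5p*, with r = 0.510. None of the 211 was as close to *miR-450a* or to *miR-450b* as these are to each other. These miRNAs were chosen after the values were seen, and no test is given.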
